A study of Macaca fascicularis with 10 samples.

Results

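S100 proteins, serpins, kallikreins, SPINK inhibitors and SPRR proteins were followed across embryonic stem cells and cells labelled fibroblast of the cynomolgus monkey, Macaca fascicularis. Members were all genes whose annotated symbol begins with S100, SERPINA to SERPINI, KLK, SPINK or SPRR, with KLK and SPINK followed by a number. A gene was represented by the probe set with the highest mean log2 signal among those that name it alone. That gave 58 genes of 14132 with a single symbol on the array, namely 16 S100 genes, 26 serpins, 9 kallikreins, 5 SPINK genes and 2 SPRR genes. S100PBP, taken in by its name, encodes a protein that binds S100P and is not itself an S100 protein. A probe set was tested where its signal lay above the median of its array on at least 2 arrays, which 42 of the 58 members met. Of the 42, 9 passed only through the 2 arrays of cells labelled fibroblast, so these 9 had to be lower in the stem cells.

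S100 proteins are small calcium-binding proteins that act inside the cell on annexins and cytoskeletal proteins and, when released, on surface receptors. Most serpins are single-use inhibitors that trap a serine protease by a change of shape, while a few, such as the collagen chaperone SERPINH1, inhibit no protease. Kallikreins are secreted serine proteases encoded side by side in a single cluster. In epidermis KLK5 and KLK7 cut the desmosomal proteins that hold dead surface cells together, and the inhibitor encoded by SPINK5 restrains them. SPRR proteins are crosslinked into the cornified envelope that replaces the membrane of these cells.

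Each of 10 RNA samples had its own Affymetrix Rhesus Macaque array. The 5 PG-haESC arrays were of haploid embryonic stem cells derived from parthenogenetic embryos. Of these, 4 were of line MPH1, of which arrays 1 and 2 carried the code M1 at passages 8 and 11 and arrays 3 and 4 the code M2 at passages 7 and 9, and array 5 was of line MPH2 at passage 4. The 3 ICSI ESC arrays were of stem cells from embryos made by sperm injection, lines MES1 at passage 12, MES2 at passage 4 and MES3 at passage 4. The 2 remaining arrays, called MF after their title, were labelled as female diploid somatic fibroblasts, code 118, at passages 14 and 15. Feeder layers and the kinase inhibitors Y27635 and Thiazovivin were used for every stem cell culture. The labels do not say whether arrays of a line came from separate cultures, so p-values measure the spread between these arrays. The 2 MF arrays share a line and a code. Their median absolute log2 difference was 0.065 over tested members and 0.145 over tested genes. They give no measure of the spread between fibroblast lines. Values are MAS5 signal, a linear brightness scaled to the same trimmed mean on every array, and array medians ran from 76.8 to 133. Signals of different genes are not compared, since each probe set has its own response.

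Cell type markers were read before the members. POU5F1, the defining pluripotency factor, gave 33612, 30209, 26436, 27126 and 17259.6 on the PG-haESC arrays, 24278, 20723 and 27189 on the ICSI ESC arrays and 40.6 and 80 on the MF arrays. Those 2 arrays also carried markers of epidermis and blood. KRT1, a keratin of differentiating keratinocytes, gave 53895 and 53774 there, and TP63, the keratinocyte transcription factor, gave 14270.3 and 14624. The 5 keratinocyte markers summed to 172859 and 174865 against 9180.2 to 17288 on the stem cell arrays, and KRT1, KRT10, TP63 and PERP were above every stem cell array, while ITGA6 was within their range. The 7 fibroblast markers, of which THY1 alone was within the stem cell range, lay above the array median on both MF arrays, and 6 or 7 of them did so on every stem cell array. KRT5, KRT14, PDGFRA and PDGFRB had no probe set named here. LYZ, the lysozyme of myeloid cells, gave 7273 and 6996, and the summed leukocyte markers gave 10459.8 and 10138 against 329.5 to 794 on the stem cell arrays. PTPRC, CD14 and CSF1R were likewise above every stem cell array, while CD68 and ITGAM were within their range. The 2 arrays are therefore called by their name, MF, and cell makeup and the labelled cell type cannot be told apart in any difference from them.

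Most of the 42 tested members set the stem cells apart from the MF arrays, and few set the stem cell groups apart from each other. Tests were made with limma on log2 signal, and an adjusted p under 0.05, over all probe sets tested, is called. Between PG-haESCs and ICSI ESCs, 1 of the 42 tested members was called, KLK7, which was higher in PG-haESCs, against 0.576% of the 11639 genes tested in the same way (0.507% higher and 0.0687% lower). Between PG-haESCs and the MF arrays, 27 members were called, 4 higher and 23 lower in PG-haESCs, against 40.3% of genes (23% higher and 17.3% lower). Ranges did not overlap with those of the MF arrays in PG-haESCs for 6 higher members and 27 lower members (34% and 30.2% of genes). In ICSI ESCs the count called was 26, with 5 higher and 21 lower, against 39.6% of genes (22.6% higher and 17% lower), and ranges did not overlap for 6 higher and 28 lower (36.7% and 32.7% of genes). Of the lower calls, 8 and 7 were of members that passed the filter through the MF arrays alone. The median log2 change of the 42 was -0.04, -2.18 and -1.91 in the 3 comparisons, where the median of all tested genes was -0.02, 0.06 and 0.08. The comparisons with the MF arrays share those 2 arrays, so each is given by its own values.

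**Figure D1:**
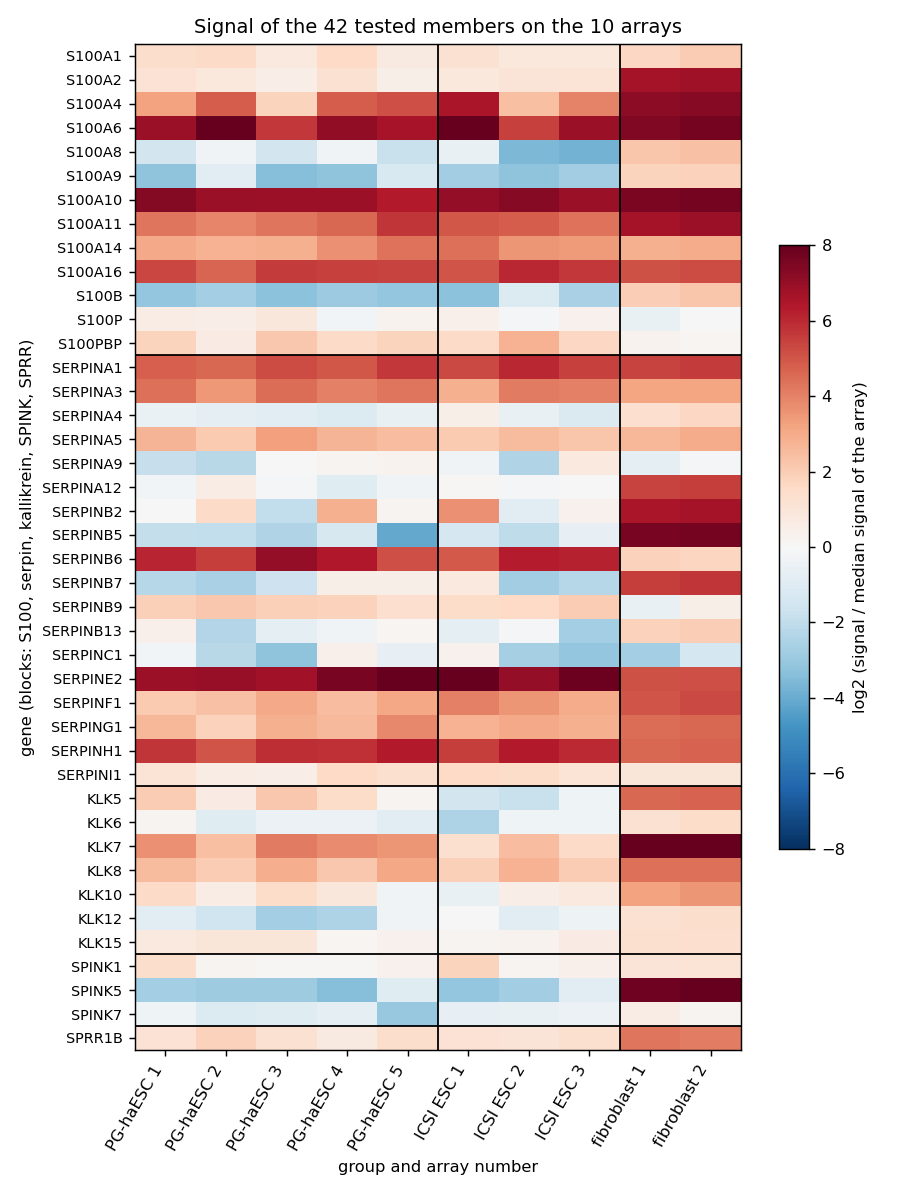
Signal of the 42 tested members on the 10 arrays, as the log2 ratio to the median of each array (colour scale from -8 to 8, beyond which colours no longer change), with genes in rows by family and arrays in columns by group. SPINK5, SERPINB5, KLK7, S100A2 and SERPINA12 are dark red only in the 2 MF columns (labelled fibroblast in the plot), while SERPINB6 and SERPINE2 are darker in the 8 stem cell columns.

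Among kallikreins, KLK7 was the one member whose level differed between the stem cell groups beyond the test's threshold. It encodes the chymotrypsin-like kallikrein of the stratum corneum. Its signal was 1207, 708, 1401, 1306 and 898 on PG-haESC arrays 1 to 5 and 286, 428 and 282 on ICSI ESC arrays 1 to 3. Every PG-haESC array lay above every ICSI ESC array. The difference was 3.2-fold, a log2 change of 1.68 ± 0.28 (SE, adjusted p = 0.0276), with a 95% interval of 1.07 to 2.29. On the MF arrays KLK7 reached 40962 and 39569, so PG-haESCs lay 38.6-fold and ICSI ESCs 124-fold below them, with log2 changes of -5.27 ± 0.34 (SE, adjusted p = 4.9e-07) and -6.95 ± 0.34 (SE, adjusted p = 8.9e-08). Under the 22 alternatives the log2 change of KLK7 between the stem cell groups ran from 1.58 to 1.88 and its adjusted p from 0.0046 to 0.37, and 8 of them ended the call. Leaving out ICSI ESC array 3 gave an adjusted p of 0.122, and leaving out PG-haESC array 1, 3 or 4 gave 0.076, 0.0672 and 0.0518.

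KLK5, the trypsin-like kallikrein that activates KLK7, ran the same way between the stem cell groups but was not called. The PG-haESC arrays gave 387, 209, 339.9, 270.4 and 90 and the ICSI ESC arrays 42.6, 22.8 and 75.1, all 3 of the latter below their array's median. The ranges did not overlap, and MPH2, on array 5, was the lowest of the PG-haESCs. With the ICSI ESC signals raised to their array's median, which makes the ratio a lower bound, KLK5 was at least 2.44-fold higher in PG-haESCs. The fitted log2 change was 2.27 ± 0.53 (SE, adjusted p = 0.108), and without PG-haESC array 5 it was 2.82 with an adjusted p of 0.0269. A second KLK5 probe set gave 125, 23.8, 73.1, 133 and 17.1 on the PG-haESC arrays and 51.7, 16.9 and 73.6 on the ICSI ESC arrays, which overlapped, with a log2 change of 0.21 (adjusted p = 0.993). On the MF arrays KLK5 gave 2896 and 2911. PG-haESCs lay 14.4-fold below that, a log2 change of -3.85 ± 0.65 (SE, adjusted p = 6.3e-04), and ICSI ESCs at least 30.5-fold below it (adjusted p = 2.3e-05).

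Of the other 5 tested kallikreins, none was called between the stem cell groups, and KLK6, KLK8, KLK10 and KLK12 were called against the MF arrays in at least 1 stem cell group. KLK8, which encodes neuropsin, gave 553, 532, 584, 430.4 and 665 in PG-haESCs, 434, 523 and 397 in ICSI ESCs and 2629.6 and 2291 on the MF arrays. It was above the array median on all 10 arrays, and was lower by 4.36-fold in PG-haESCs (adjusted p = 6.5e-05) and 5.48-fold in ICSI ESCs (adjusted p = 2.5e-05). KLK10 gave 273, 202, 216, 179.8 and 64.8, 78, 109 and 164 and 1136 and 1295 in the same order of groups, with log2 changes of -3.04 ± 0.57 (SE, adjusted p = 0.00138) and -3.44 ± 0.58 (SE, adjusted p = 6.5e-04). KLK6 and KLK12 reached 287 to 299 and 283 to 293 on the MF arrays, passed the filter through those arrays alone, and lay at or below 111 and 120.0 on every stem cell array. KLK6 was lower in PG-haESCs (adjusted p = 0.0337) and in ICSI ESCs (adjusted p = 0.0149), and KLK12 in PG-haESCs (adjusted p = 0.0281), while KLK12 in ICSI ESCs had an adjusted p of 0.136. Leaving out either MF array ended the KLK6 and KLK12 calls, with adjusted p from 0.0576 to 0.112 for KLK6 and 0.0847 and 0.0903 for KLK12, and so did leaving out PG-haESC array 2, 3 or 5 for KLK6 in PG-haESCs (0.0577, 0.0567 and 0.0605). KLK15 ranged from 92.6 to 256 on the stem cell arrays and 280.5 to 293 on the MF arrays, with no call. In all, 6 of the 7 tested kallikreins were lower in PG-haESCs and 5 of 7 in ICSI ESCs, against 17.3% and 17% of genes, and 2 and 1 of these calls were of members that passed through the MF arrays alone.

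**Figure D2:**
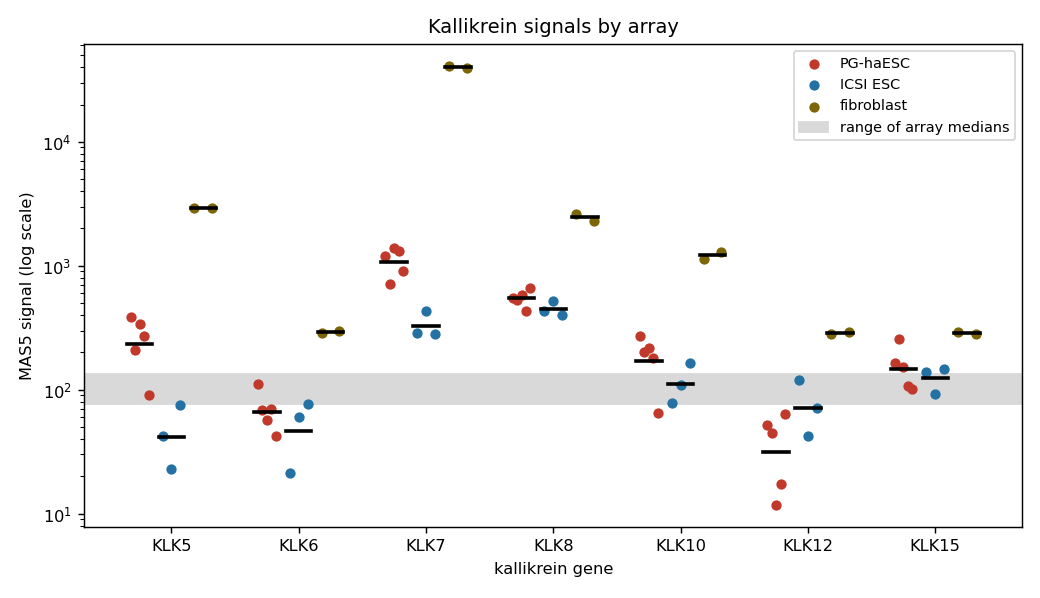
MAS5 signal (log scale) of the 7 tested kallikreins on each of the 5 PG-haESC, 3 ICSI ESC and 2 MF arrays, with the geometric mean of each group as a black bar and the range of array medians as a grey band. KLK7 is higher on all 5 PG-haESC arrays than on the 3 ICSI ESC arrays, and the ICSI ESC points of KLK5 lie at or under the band.

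The order of the kallikrein genes in the RefSeq annotation of T2T-MFA8v1.1 places KLK5, KLK6, KLK7 and KLK8 next to each other. KLK6, which lies between KLK5 and KLK7, had signals of 111, 68.3, 56.8, 70.2 and 42.2 in PG-haESCs and 21.1, 59.9 and 76.8 in ICSI ESCs, and its log2 change between the stem cell groups was 0.43 ± 0.61 (SE, adjusted p = 0.978), with an interval of -0.88 to 1.75. KLK8, on the other side of KLK7, had a log2 change of 0.33 ± 0.22 (SE, adjusted p = 0.886), with an interval of -0.14 to 0.80. The ranges of both genes overlapped between the stem cell groups, as did those of KLK10, KLK12 and KLK15.

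SPINK5, which encodes the inhibitor LEKTI of KLK5 and KLK7, showed one of the widest gaps of all members. It gave 26151 and 27343 on the MF arrays and 8.94 to 51.3 on the 8 stem cell arrays, all of them below the array median. Like SPINK7 below, SPINK5 passed the filter through the MF arrays alone, so it had to be lower in the stem cells. The stem cell signal was lower in PG-haESCs by at least 284-fold (adjusted p = 3.0e-06) and in ICSI ESCs by at least 281-fold (adjusted p = 3.8e-06). Between the stem cell groups its log2 change was -0.14 ± 0.71 (SE, adjusted p = 0.993), from signals that lie under the array median throughout. SPINK1, the pancreatic trypsin inhibitor, ranged from 81.5 to 395 over the stem cell arrays, highest on ICSI ESC array 1, and was 244 and 239 on the MF arrays. Its log2 changes were -0.98 ± 0.72 (SE, adjusted p = 0.336) in PG-haESCs, -0.55 ± 0.73 (SE, adjusted p = 0.613) in ICSI ESCs and -0.43 ± 0.59 (SE, adjusted p = 0.978) between them. SPINK7 was measured at 186 and 128 on the MF arrays and at or below 74.5 in stem cells, all below the array median there, with fitted log2 changes of -2.27 ± 0.92 (SE, adjusted p = 0.0778) and -1.28 ± 0.93 (SE, adjusted p = 0.328) and, between the stem cell groups, -0.99 ± 0.76 (SE, adjusted p = 0.924).

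Skin substrates of the kallikreins were set beside them from a separate list. Of 7 tested substrates, none was called between the stem cell groups. Against the MF arrays, 4 were lower and 1 higher in PG-haESCs, and 6 were lower and 1 higher in ICSI ESCs. The shares of all genes were 17.3% lower and 23% higher in PG-haESCs, and 17% and 22.6% in ICSI ESCs. DSG1 and DSC1, cadherins of the desmosome, were below the array median on all 8 stem cell arrays. Both therefore passed the filter through the MF arrays alone and had to be lower in the stem cells. DSG1 was lower by at least 114-fold (adjusted p = 9.7e-07) in PG-haESCs and at least 113-fold (adjusted p = 1.8e-06) in ICSI ESCs, and DSC1 by at least 217-fold (adjusted p = 6.8e-05) and at least 215-fold (adjusted p = 7.4e-05). The exception was F2RL1, the protease-activated receptor PAR2, which was higher by 1.73 ± 0.42 (SE, adjusted p = 0.00741) in PG-haESCs and 2.11 ± 0.43 (SE, adjusted p = 0.00227) in ICSI ESCs. KRT1, KRT10, TP63 and PERP, 4 of the 5 keratinocyte markers, run the same way as the lower substrates, and their part was not tested.

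Outside the kallikreins, PG-haESCs and ICSI ESCs were separated by no called member. Of the 42, 4 had an unadjusted p under 0.05, namely KLK7, KLK5, SERPINA1 and SERPINF1. Ranges of the stem cell groups did not overlap for those same 4, 2 higher and 2 lower in PG-haESCs, where 5.07% of genes were higher and 3.22% lower without overlap. SERPINA1, or alpha-1 antitrypsin, gave 2664, 3187, 2939, 3046 and 3975 in PG-haESCs and 4516, 4948 and 4152 in ICSI ESCs. All 5 PG-haESC arrays lay below the 3 ICSI ESC arrays, with a log2 change of -0.48 ± 0.16 (SE, adjusted p = 0.388) and an interval of -0.83 to -0.13. Under the 22 alternatives that change ran from -0.62 to -0.04. The 5 tested SERPINA1 probe sets gave log2 changes from -1.20 to 0.72, none called. SERPINF1, the secreted protein PEDF that restrains vessel growth, gave 405, 685, 638, 536 and 656 and 1880.2, 905 and 748, highest on ICSI ESC array 1. Its log2 change was -0.89 ± 0.32 (SE, adjusted p = 0.453), with an interval of -1.58 to -0.20. The other members with the smallest p were S100A16, with 3841, 3332, 3772, 4231 and 3322 against 3918, 4943 and 4893 (-0.33 ± 0.16 (SE, adjusted p = 0.704)), and SERPINA3, or alpha-1 antichymotrypsin, with 2063, 1493, 1704, 1582 and 1530.1 against 831, 1378 and 1581 (0.43 ± 0.24 (SE, adjusted p = 0.806)). Both overlapped between the groups. In none of the 7 related gene lists was a gene called between PG-haESCs and ICSI ESCs.

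**Figure D3:**
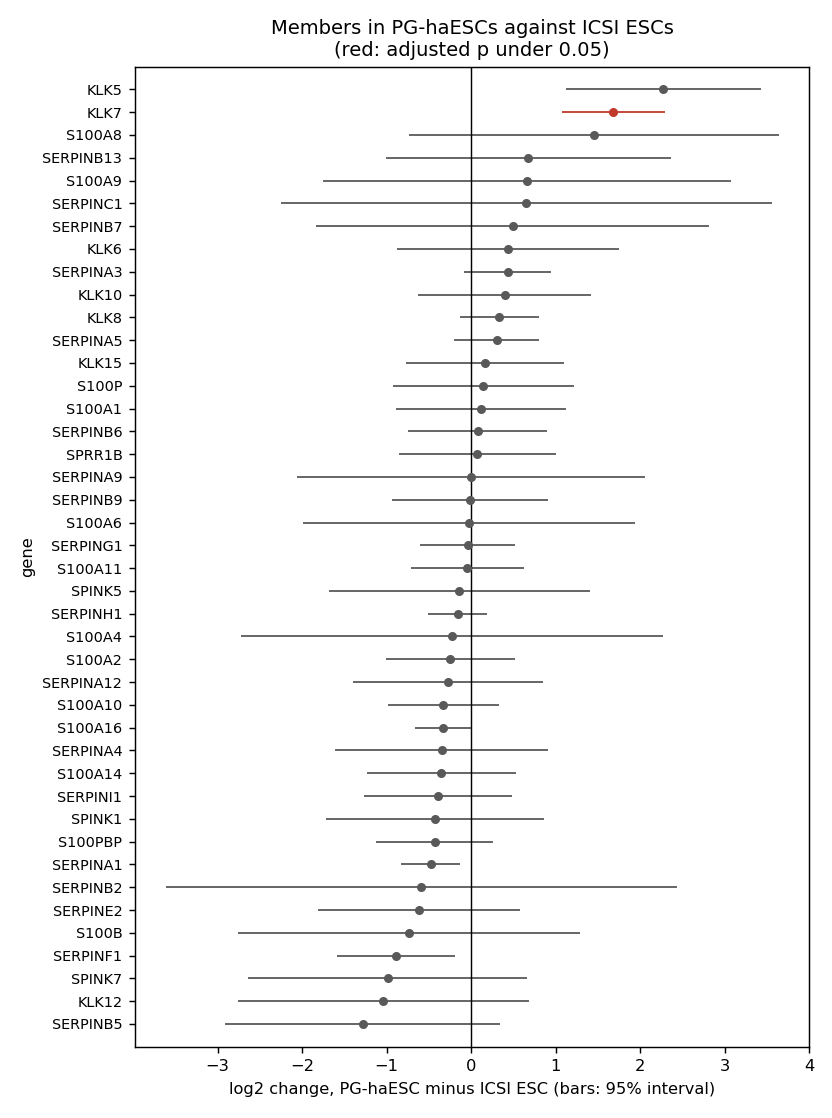
Log2 change of the 42 tested members in PG-haESCs against ICSI ESCs, with 95% intervals as bars and genes ordered by their change. KLK7 at 1.68 is the one called member (red), and the intervals of KLK5, SERPINA1 and SERPINF1 also exclude 0, though their adjusted p was 0.108 to 0.453.

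Among S100 genes, 6 of 13 tested were lower in PG-haESCs than on the MF arrays and none higher, and in ICSI ESCs 5 were lower and 1, S100PBP, higher. Of all genes, 17.3% and 17% were lower, and 3 of the lower S100 calls in each group were of members that passed the filter through the MF arrays alone. S100A2, a nuclear S100 protein of basal keratinocytes, gave 12188 and 12032 on the MF arrays and 107 to 240.2 on the stem cell arrays. It was 76.7-fold lower in PG-haESCs, a log2 change of -6.26 ± 0.43 (SE, adjusted p = 7.3e-07), and 64.5-fold lower in ICSI ESCs, -6.01 ± 0.43 (SE, adjusted p = 1.2e-06). S100A11, which binds annexin A1, was well expressed everywhere, at 1894, 1978, 1529, 2271 and 4074 in PG-haESCs, 3641, 2226 and 1919.5 in ICSI ESCs and 12334 and 12579 on the MF arrays. MPH2 on PG-haESC array 5 and MES1 on ICSI ESC array 1 were the highest stem cell arrays, and still lay under the MF arrays. Its log2 change was -2.36 ± 0.38 (SE, adjusted p = 4.3e-04) in PG-haESCs and -2.32 ± 0.38 (SE, adjusted p = 5.4e-04) in ICSI ESCs.

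S100A8 and S100A9 together form calprotectin, a zinc-binding complex abundant in neutrophils, monocytes and stressed epidermis. S100A8 gave 564 and 566 and S100A9 gave 416 and 400.4 on the MF arrays, and both stayed below the array median on all 8 stem cell arrays. Both passed the filter through the MF arrays alone, so both had to be lower in the stem cells. S100A8 was lower in PG-haESCs by at least 6-fold (adjusted p = 0.0313) and in ICSI ESCs by at least 5.94-fold (adjusted p = 0.00593). S100A9 was lower by at least 4.33-fold (adjusted p = 0.0256) and at least 4.29-fold (adjusted p = 0.0132). Without 1 or the other MF array, the PG-haESC calls were lost, with adjusted p of 0.102 and 0.102 for S100A8 and 0.0959 and 0.0916 for S100A9. The S100A9 call in ICSI ESCs was lost too (adjusted p = 0.0623 and 0.06), and leaving out PG-haESC array 1, 3 or 5 gave S100A8 in PG-haESCs an adjusted p of 0.0505, 0.052 and 0.058. Of the leukocyte markers, LYZ, PTPRC, CD14 and CSF1R were high on the same 2 arrays, CD68 and ITGAM were not, and their part was not tested. Between the stem cell groups S100A8 had a log2 change of 1.45 ± 1.01 (SE, adjusted p = 0.899), from signals of 6.42 to 112 that all lie below the array medians.

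S100B, known from Schwann cells, melanocytes and Langerhans cells, was 469 and 522 on the MF arrays and 7.99 to 35.7 in stem cells. It too passed the filter through the MF arrays alone and had to be lower in the stem cells. It was lower in PG-haESCs by at least 5.25-fold (adjusted p = 0.00265) and in ICSI ESCs by at least 5.2-fold (adjusted p = 0.00689), where leaving out MF array 2 gave an adjusted p of 0.0531. Of 6 melanocyte genes, DCT, TYR and TYRP1 were above every stem cell array there, MLANA was not, and MITF, at 471 and 468, was below the 2339.9 to 4962 of the stem cell arrays. TYR and TYRP1 gave 394 and 404 and 692 and 741 on the same arrays, against at most 26.4 and 61.7 in stem cells, while PMEL gave 0.637 and 1.18 and SOX10, of Schwann cells and melanocytes, 85.9 and 114. S100A10, the annexin A2 partner also called p11, was high in all groups, with 15706, 15929, 8823, 11125 and 6353 in PG-haESCs, 15099, 11836 and 11402 in ICSI ESCs and 22683 and 22696 on the MF arrays. It was lower in PG-haESCs, with a log2 change of -1.17 ± 0.37 (SE, adjusted p = 0.0274), while the ICSI ESC change was -0.84 ± 0.37 (SE, adjusted p = 0.103). Leaving out either MF array raised the adjusted p of the S100A10 call to 0.085, and without PG-haESC array 5 the ICSI ESC change was called (0.0426). S100PBP gave 336, 213, 348, 279.8 and 264, 341, 525 and 304 and 147 and 122 in the 3 groups, with log2 changes of 1.07 ± 0.39 (SE, adjusted p = 0.0513), 1.50 ± 0.39 (SE, adjusted p = 0.0107) and, between the stem cell groups, -0.43 ± 0.32 (SE, adjusted p = 0.913). Without MF array 2 the S100PBP call in ICSI ESCs had an adjusted p of 0.0526.

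Of 11 tested binding partners of S100 proteins, 3 were lower and 1 higher in each stem cell group than on the MF arrays, and 7 were not called. Among all genes, 17.3% were lower and 23% higher in PG-haESCs, and 17% and 22.6% in ICSI ESCs. The median log2 change of the 11 was -0.10 in PG-haESCs and -0.30 in ICSI ESCs. ANXA2, the partner of S100A10, was lower, with log2 changes of -0.99 ± 0.21 (SE, adjusted p = 0.00289) in PG-haESCs and -0.86 ± 0.21 (SE, adjusted p = 0.00699) in ICSI ESCs, and ANXA1, the partner of S100A11, had -3.34 ± 1.06 (SE, adjusted p = 0.0287) and -3.37 ± 1.07 (SE, adjusted p = 0.029). CD36, a scavenger receptor that takes up lipids carried by S100A8 and S100A9, was lower as well, at -4.24 ± 0.88 (SE, adjusted p = 0.00266) and -4.68 ± 0.89 (SE, adjusted p = 0.0015). SUGT1, a co-chaperone bound by S100A6, was the exception and was higher by 1.72 ± 0.25 (SE, adjusted p = 2.4e-04) and 1.48 ± 0.26 (SE, adjusted p = 8.0e-04).

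In each stem cell group, 9 of 18 tested serpins were lower than on the MF arrays and 4 were higher, where 17.3% of genes were lower and 23% higher in PG-haESCs and 17% and 22.6% in ICSI ESCs. The share of serpins that were higher, 22.2%, is thus near that of all genes, and 2 of the lower calls passed the filter through the MF arrays alone. The widest differences were in clade B, whose members act inside the cell, and in SERPINA12. SERPINB5, or maspin, an epithelial serpin that inhibits no known protease, gave 23101 and 22631 on the MF arrays and 4.56 to 59.4 on the stem cell arrays, all below the array median. SERPINB5 passed the filter through the MF arrays alone, so it had to be lower in the stem cells. It was lower in PG-haESCs by at least 243-fold (adjusted p = 4.3e-06) and in ICSI ESCs by at least 240.4-fold (adjusted p = 1.4e-05). SERPINB7 gave 5738 and 5924 against 11 to 205, with log2 changes of -6.88 ± 1.30 (SE, adjusted p = 0.00143) and -7.37 ± 1.31 (SE, adjusted p = 9.7e-04). SERPINA12, the adipokine vaspin and an inhibitor of KLK7, gave 5211 and 5129.8 against 49.5 to 202. It was 65.5-fold lower in PG-haESCs, -6.03 ± 0.63 (SE, adjusted p = 1.8e-05), and 54.2-fold lower in ICSI ESCs, -5.76 ± 0.63 (SE, adjusted p = 2.9e-05). SERPINB7 lay above the array median on 2 PG-haESC arrays and 1 ICSI ESC array, and SERPINA12 on 1 and 2. The sizes of the changes of these 2 genes are therefore imprecise. The same 4 keratinocyte markers move with these genes, and their part was not tested. In all bulk values here, fewer cells of a type and less RNA per cell cannot be told apart.

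SERPINB2, the plasminogen activator inhibitor PAI-2, gave 99.4, 384, 20.1, 695 and 91.5 in PG-haESCs, 1464, 40.9 and 124 in ICSI ESCs and 11108 and 11099.5 on the MF arrays. All stem cell arrays lay below the 2 others, but they spread widely among themselves. Its log2 change was -6.42 ± 1.69 (SE, adjusted p = 0.0111) in PG-haESCs and -5.83 ± 1.71 (SE, adjusted p = 0.0194) in ICSI ESCs. The ICSI ESC call was lost without ICSI ESC array 2 or 3 (adjusted p = 0.0558 and 0.0525) or without either MF array (0.061 in each case). SERPINF1 gave 3958 and 4286 on the MF arrays, and with the stem cell values given above it was 7.04-fold lower in PG-haESCs (-2.82 ± 0.39 (SE, adjusted p = 1.5e-04)) and 3.8-fold lower in ICSI ESCs (-1.93 ± 0.39 (SE, adjusted p = 0.00234)). SERPING1, the inhibitor of complement C1, gave 602, 485, 552, 581 and 1097, 819.6, 630.5 and 687 and 2641 and 2642 in the 3 groups, with log2 changes of -1.94 ± 0.32 (SE, adjusted p = 5.0e-04) and -1.90 ± 0.32 (SE, adjusted p = 6.5e-04). SERPINA4, SERPINB13, SERPINA1 in PG-haESCs and SERPINA5 in ICSI ESCs made up the remaining lower calls, and single arrays ended each of them. Of 5 tested SERPINA1 probe sets, 3 were called lower in PG-haESCs and 2, not the one used, in ICSI ESCs. The other of 2 tested SERPINA4 probe sets gave log2 changes of 0.02 in PG-haESCs and -0.85 in ICSI ESCs, not called. SERPINA4, or kallistatin, passed the filter through the MF arrays alone. It was lower by at least 3.48-fold in PG-haESCs (adjusted p = 0.0145), lost without MF array 2 (0.0687), and had a log2 change of -2.20 ± 0.71 (SE, adjusted p = 0.0314) in ICSI ESCs, lost without ICSI ESC array 2 or 3 (0.0762 and 0.0859) or MF array 1 or 2 (0.0855 and 0.12). SERPINB13, an epithelial serpin, had a log2 change of -2.72 ± 0.94 (SE, adjusted p = 0.0423) in PG-haESCs and was lower by at least 4.58-fold in ICSI ESCs (adjusted p = 0.0155). Without MF array 1 or 2 its adjusted p was 0.119 and 0.116 in PG-haESCs and 0.0591 and 0.0583 in ICSI ESCs, while without PG-haESC array 2 or 3 it was 0.0661 and 0.0721 in PG-haESCs. SERPINA1 in PG-haESCs had -0.68 ± 0.20 (SE, adjusted p = 0.0177), and without MF array 1 or 2 an adjusted p of 0.0529 and 0.0756. SERPINA5, the protein C inhibitor, had -0.82 ± 0.28 (SE, adjusted p = 0.0419) in ICSI ESCs, and leaving out ICSI ESC array 2 or 3, PG-haESC array 1, 2 or 4 or either MF array gave adjusted p from 0.0568 to 0.17.

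Higher in stem cells were SERPINB6, SERPINE2, SERPINH1 and SERPINB9. SERPINB6, an intracellular inhibitor of thrombin and cathepsin G, gave 6703, 6142, 10166, 8141 and 2829.5 in PG-haESCs, 3542, 6013 and 6943 in ICSI ESCs and 442 and 367 on the MF arrays. MPH2 and MES1 were the lowest stem cell arrays, and both lay well above the MF arrays. It was 13.8-fold higher in PG-haESCs, a log2 change of 3.79 ± 0.46 (SE, adjusted p = 5.7e-05), and 13.1-fold higher in ICSI ESCs, 3.71 ± 0.46 (SE, adjusted p = 7.3e-05). SERPINH1, the chaperone HSP47 that binds folded procollagen in the endoplasmic reticulum, gave 5074, 4359, 4698, 5503 and 6419, 5541, 6267 and 6074 and 2956 and 2867. Neither stem cell group overlapped the MF arrays, and it was 1.83-fold higher in PG-haESCs (0.87 ± 0.19 (SE, adjusted p = 0.0042)) and 2.04-fold higher in ICSI ESCs (1.03 ± 0.20 (SE, adjusted p = 0.00153)). Of 3 tested SERPINH1 probe sets, 2 were called higher in PG-haESCs, with log2 changes of all 3 from 0.52 to 1.04. In ICSI ESCs all 3 were called.

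SERPINE2, or protease nexin 1, an extracellular inhibitor of thrombin and plasminogen activators, gave 11023, 16539.7, 8179.6, 18882 and 25362 in PG-haESCs, 64852, 10189 and 22412 in ICSI ESCs and 4151 and 3921 on the MF arrays. All 8 stem cell arrays lay above the 2 others, with log2 changes of 1.99 ± 0.67 (SE, adjusted p = 0.0375) and 2.61 ± 0.68 (SE, adjusted p = 0.0103). The PG-haESC call was lost without PG-haESC array 2, 4 or 5 (adjusted p = 0.0748, 0.0564 and 0.0786) and without either MF array (adjusted p = 0.0958 and 0.109). Of 4 tested SERPINE2 probe sets, 2 were called higher in PG-haESCs, with log2 changes of all 4 from 1.47 to 1.99. In ICSI ESCs all 4 were called. SERPINB9, the inhibitor of granzyme B, gave 353, 597, 291, 339 and 198, 323, 235 and 396 and 80.5 and 149, and was higher by 1.49 ± 0.52 (SE, adjusted p = 0.0419) in PG-haESCs and 1.50 ± 0.52 (SE, adjusted p = 0.0424) in ICSI ESCs. The other of 2 tested SERPINB9 probe sets gave log2 changes of 0.33 in PG-haESCs and 0.04 in ICSI ESCs, not called. With the mean of all probe sets, SERPINB9 was called in neither group. The calls on the probe set used lie close to the threshold. In PG-haESCs they were lost without ICSI ESC array 3 (0.0503) or PG-haESC array 1, 2, 3 or 4 (0.0573 to 0.076), and in ICSI ESCs without ICSI ESC array 3 (0.112) or PG-haESC array 1, 3 or 4 (0.0562 to 0.0612). Both were also lost without MF array 1, without which the log2 change was 1.06 in each group with adjusted p of 0.204 and 0.21.

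**Figure D4:**
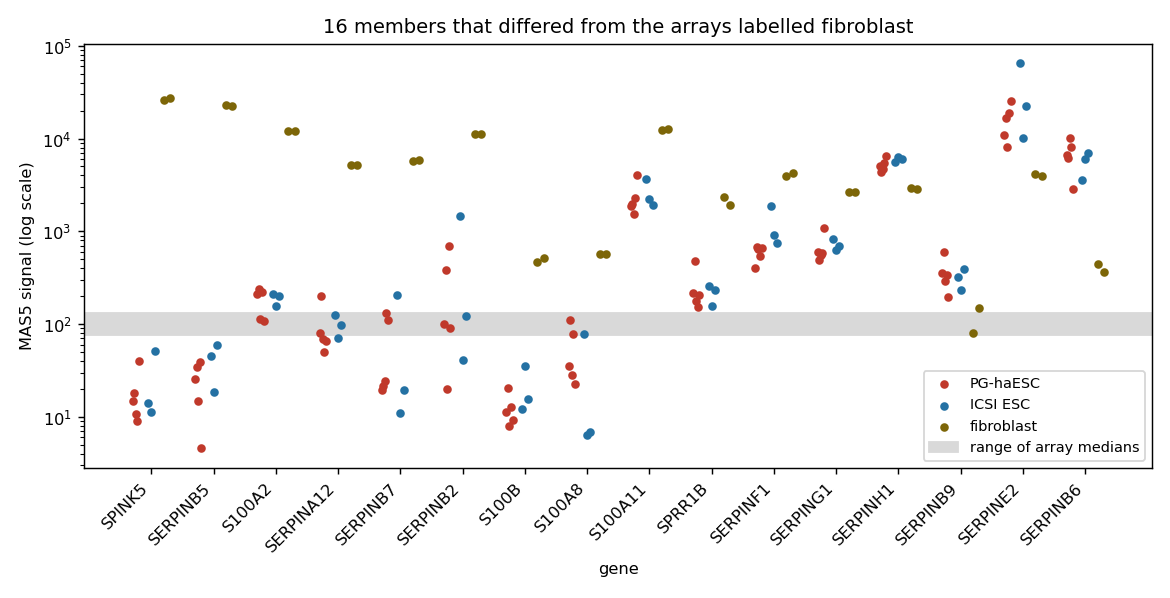
MAS5 signal (log scale) of 16 members called in both comparisons with the MF arrays, 1 point per array, with the range of array medians as a grey band. From SPINK5 to SERPING1 the MF points (labelled fibroblast) lie above those of all 8 stem cell arrays, and for SERPINH1, SERPINB9, SERPINE2 and SERPINB6 they lie below them.

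Proteases and inhibitors around the serpins gave a mixed picture. Of 12 tested serine proteases of the serpin, kallikrein and SPINK network, 3 were lower in PG-haESCs and 2 in ICSI ESCs, and none was higher, which for the lower calls is near the 17.3% and 17% of all genes. HTRA1, a secreted protease of the extracellular matrix, was lower, with log2 changes of -3.93 ± 0.60 (SE, adjusted p = 3.2e-04) and -4.12 ± 0.61 (SE, adjusted p = 2.5e-04). Coagulation factor F10 was below the array median on all stem cell arrays, so it passed the filter through the MF arrays alone. Its geometric mean signals were 19.1 and 15.3 in PG-haESCs and ICSI ESCs against 368 on the MF arrays. GZMB, the granzyme that SERPINB9 inhibits, was the third lower protease in PG-haESCs, with -3.07 ± 1.01 (SE, adjusted p = 0.0336). Of 3 tested receptors and cofactors of plasminogen activation and thrombin, 2 were higher in PG-haESCs and all 3 in ICSI ESCs, against 23% and 22.6% of all genes. THBD, the thrombin cofactor thrombomodulin, was higher by 2.14 ± 0.19 (SE, adjusted p = 4.8e-06) and 1.92 ± 0.19 (SE, adjusted p = 1.3e-05), VLDLR, a receptor that clears serpin complexes, by 1.35 ± 0.47 (SE, adjusted p = 0.0425) and 1.93 ± 0.47 (SE, adjusted p = 0.00731), and PLAUR, the urokinase receptor, by 1.86 ± 0.42 (SE, adjusted p = 0.00485) in ICSI ESCs.

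Of 13 tested protease inhibitors outside the serpins and SPINK genes, 5 were lower and 3 higher in each stem cell group. The share that was higher is near the 23% and 22.6% of all genes, while 17.3% and 17% of genes were lower. The cystatins CSTA and CST6, which inhibit cysteine proteases in epidermis, were lower, with log2 changes of -6.86 ± 0.38 (SE, adjusted p = 1.4e-07) and -9.15 ± 1.04 (SE, adjusted p = 3.6e-05) in PG-haESCs. In ICSI ESCs, CSTA had -6.71 ± 0.38 (SE, adjusted p = 1.9e-07) and CST6, below the array median on all 3 arrays, was lower by at least 388-fold (adjusted p = 1.8e-05). The matrix protease inhibitor RECK was higher by 2.32 ± 0.32 (SE, adjusted p = 1.5e-04) and 2.31 ± 0.32 (SE, adjusted p = 1.7e-04). TFPI2, an inhibitor of plasmin, was below the array median on the MF arrays and at least 7.2-fold higher in PG-haESCs (adjusted p = 5.6e-04) and at least 12.6-fold higher in ICSI ESCs (adjusted p = 2.4e-04). Among 13 tested procollagens and collagen folding enzymes, 3 were higher and 1 lower in PG-haESCs and 3 higher and 2 lower in ICSI ESCs, and the share that was higher is near that of all genes, 23% and 22.6%. COL5A2 was higher by 1.81 ± 0.19 (SE, adjusted p = 2.3e-05) and 1.88 ± 0.20 (SE, adjusted p = 1.9e-05), and the lysyl hydroxylase PLOD2 by 1.99 ± 0.36 (SE, adjusted p = 0.00106) and 1.65 ± 0.36 (SE, adjusted p = 0.00402). COL1A1 was lower, with log2 changes of -4.49 ± 1.12 (SE, adjusted p = 0.00832) and -4.09 ± 1.13 (SE, adjusted p = 0.0147).

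SPRR1B, a cornified envelope precursor, was the tested SPRR gene. It gave 216, 481, 179, 155 and 205 in PG-haESCs, 258, 158 and 233 in ICSI ESCs and 2333 and 1899 on the MF arrays. The stem cell groups overlapped, with a log2 change of 0.07 ± 0.43 (SE, adjusted p = 0.995), and both lay below the other 2 arrays, by 9.45-fold in PG-haESCs (-3.24 ± 0.52 (SE, adjusted p = 4.5e-04)) and 9.95-fold in ICSI ESCs (-3.31 ± 0.52 (SE, adjusted p = 4.2e-04)). Of 10 tested genes whose products are crosslinked with SPRR proteins, 9 were lower in PG-haESCs, 8 in ICSI ESCs and none higher. Among all genes, 17.3% and 17% were lower, and 23% and 22.6% higher. How many genes of this and the other related lists passed the filter through the MF arrays alone was not counted. Any such gene had to be lower in the stem cells. CNFN, which encodes cornifelin, had geometric mean signals of 717, 696 and 6296 in PG-haESCs, ICSI ESCs and the MF arrays. Its log2 changes were -3.23 ± 0.36 (SE, adjusted p = 2.8e-05) and -3.18 ± 0.36 (SE, adjusted p = 3.6e-05). For LORICRIN, the main envelope protein, the geometric means were 15.8, 45.7 and 42503. Both stem cell means lie under the lowest array median, 76.8. SPRR3 was not above the array median on enough arrays to be tested.

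Some members varied widely among the 8 stem cell arrays. Of 24 members above the array median on all 8, 2 varied by 10-fold or more, or 8.33%, against 1.38% of 8131 such genes. They were S100A4 and S100A6, named here after their values were seen. S100A4, a calcium-binding protein of mesenchymal cells, gave 911, 3759.6, 266, 2786 and 2762 in PG-haESCs and 10772, 411 and 1524 in ICSI ESCs, a 40.5-fold range, and 17290.3 and 17496 on the MF arrays. Its log2 change was -3.43 ± 1.40 (SE, adjusted p = 0.0793) in PG-haESCs and -3.20 ± 1.41 (SE, adjusted p = 0.102) in ICSI ESCs. Without ICSI ESC array 1 both were called, at -3.49 (adjusted p = 0.0135) and -4.46 (adjusted p = 0.00812), and without ICSI ESC array 2 the S100A4 change in PG-haESCs was too (adjusted p = 0.0454). S100A6, or calcyclin, gave 11617, 48859.6, 3988, 12906 and 7684, 35601, 3468 and 11526 and 20718 and 22302, a 14.1-fold range over the stem cell arrays that spanned the MF arrays. Another of its 3 probe sets, dimmer and at 584 and 552 on the MF arrays, was called lower in both groups, by at least 6.03-fold in PG-haESCs (adjusted p = 0.0206) and by a log2 change of -3.51 (adjusted p = 0.0103) in ICSI ESCs. SERPINB2, below the median on some of these arrays, spanned 72.8-fold and SERPINE2 7.93-fold, both highest on ICSI ESC array 1.

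Fibroblast markers varied over the same arrays. The sum of the 7 markers was 7155, 28608, 3661, 34947 and 29082 on PG-haESC arrays 1 to 5 and 98610.0, 4529.8 and 15032 on ICSI ESC arrays 1 to 3, against 163198 and 164975 on the MF arrays. DCN, which encodes the matrix proteoglycan decorin, gave 1149, 7552, 367, 16850.0 and 2577 and 39481, 182 and 1713 in the stem cells. Ordered by the mean log2 signal of the markers, the 8 arrays fell in the same order as by S100A4, from ICSI ESC array 1 to PG-haESC array 3. SERPINE2 and SERPINB2 were also highest on ICSI ESC array 1 and lowest on PG-haESC array 3. KLK7 was in another order over the 8 arrays. Its 3 lowest arrays were the ICSI ESC arrays, which held the highest, a middle and the second lowest marker level. Within PG-haESCs it was 1401 on array 3, with the lowest mean marker level, and 708 on array 2, with the highest. Within ICSI ESCs it was 428 on array 2, with the lowest level, 282 on array 3 and 286 on array 1, with the highest. The arrays share their lines, and the part of cells with fibroblast markers in the levels of S100A4, S100A6, SERPINB2, SERPINE2 and KLK7 was not tested.

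**Figure D5:**
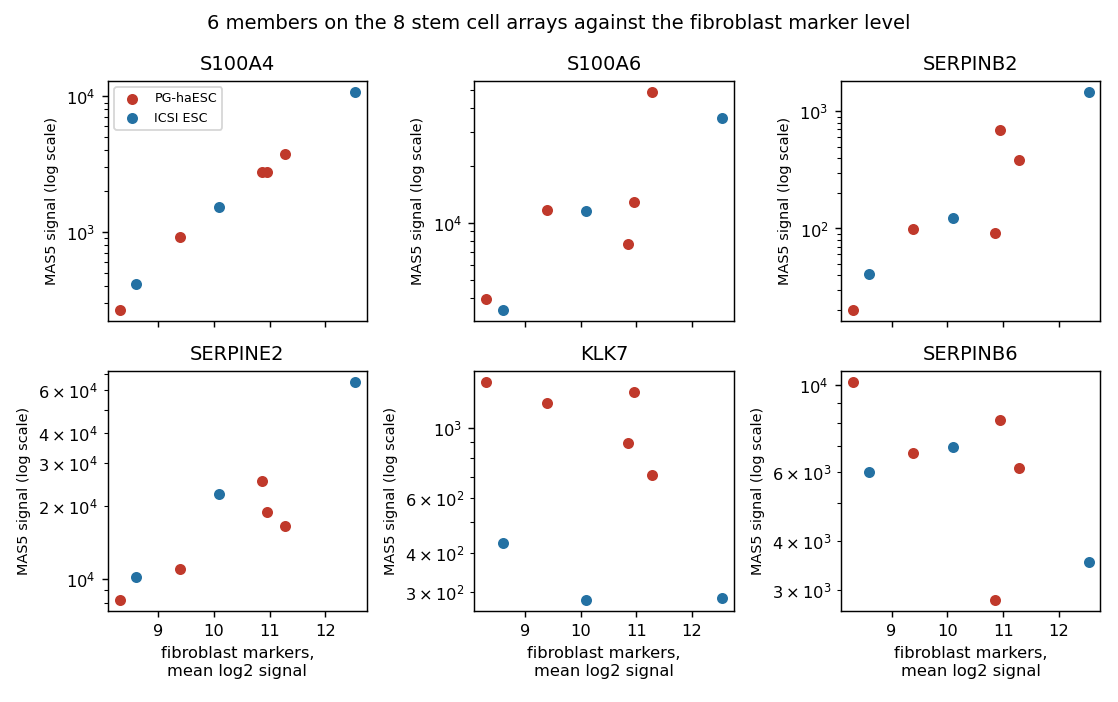
MAS5 signal (log scale) of S100A4, S100A6, SERPINB2, SERPINE2, KLK7 and SERPINB6 on the 8 stem cell arrays, 1 point per array, against the mean log2 signal of 7 fibroblast markers on the same array. S100A4 rises with the markers from 266 on PG-haESC array 3 to 10772 on ICSI ESC array 1, while KLK7 separates by group.

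Within MPH1, each code has an earlier and a later passage, 8 and 11 for M1 and 7 and 9 for M2, with 1 array each and so no test. Of the 42 tested members, 19 were higher at the later passage in both codes and 8 lower (30.7% and 28.3% of genes), and 15 went opposite ways. In all, 4 were at least 2-fold higher at the later passage in both codes, against 3.09% of genes, and none at least 2-fold lower, against 0.627%. S100A4 was 4.12-fold higher in M1 and 10.5-fold higher in M2, S100A6 4.21-fold and 3.24-fold, and SERPINB2 3.87-fold and 34.6-fold. The fourth, S100A8, lay below the array median on all 4 arrays. The summed fibroblast markers were higher at the later passage in both codes as well, at 28608 against 7155 in M1 and 34947 against 3661 in M2. KLK7 was the other way, at 708 against 1207 in M1 and 1306 against 1401 in M2. The array median too was higher at the later passage, at 133 against 96.1 in M1 and 95.8 against 77.9 in M2. The part of this difference in the counts was not tested.

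Different probe sets of a gene did not always give the same call. Of 17 members with 2 or more tested probe sets, calls differed between them for 9 in PG-haESCs and for 6 in ICSI ESCs against the MF arrays, and for none between the stem cell groups. S100A14, on the probe set used, gave 798, 909, 567, 1197 and 1584 in PG-haESCs, 2489, 897 and 1008 in ICSI ESCs and 881 and 876 on the MF arrays, with log2 changes of 0.22 ± 0.49 (SE, adjusted p = 0.781) and 0.58 ± 0.50 (SE, adjusted p = 0.421). Its other probe set gave 3969 and 4276 on the MF arrays and 53.4, 186, 59.9, 45.5 and 28.1 in PG-haESCs, with a log2 change of -6.27 (adjusted p = 8.5e-05). SERPINA3 gave 0.67 ± 0.29 (SE, adjusted p = 0.092) in PG-haESCs and 0.24 ± 0.29 (SE, adjusted p = 0.573) in ICSI ESCs on the probe set used, and another of its probe sets was lower in PG-haESCs by at least 4.77-fold (adjusted p = 0.0237). For KLK8 all 3 probe sets were lower in PG-haESCs, from 4.36-fold on the one used to at least 60.3-fold (adjusted p = 5.0e-04). Which transcripts each probe set reads was not examined.

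The other 16 members were not above the array median on 2 or more arrays and were not tested. These were S100A5, S100A12, S100G, SERPINA6, SERPINA7, SERPINA10, SERPINA11, SERPINB11, SERPINB12, SERPIND1, SERPINI2, KLK3, KLK4, SPINK4, SPINK6 and SPRR3. Their signals were low, which does not show that the genes were silent. SPINK4 reached 229 on PG-haESC array 2 alone, and SERPIND1, or heparin cofactor II, gave 137 and 62.3 on the MF arrays. Of the tested members not named above, SERPINC1 (antithrombin), SERPINI1 (neuroserpin), SERPINA9, S100A1 and S100P were called in no comparison. S100P, for example, gave 72.5 to 195 on the stem cell arrays and 81.2 and 107 on the MF arrays.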

How the data were processed

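RNA of 10 samples was measured on 1-colour Affymetrix Rhesus Macaque arrays. The labels name TRIZOL for extraction and the GeneChip 3' IVT Express kit for labelling. Signal intensity, on a linear scale, was deposited by the authors after MAS5, per the submitters' processing notes, whose release those notes leave out. After the top and bottom 2% of probe sets were trimmed, every array had a mean of 500, the common scale of all arrays. Detection calls were not used, and precision is limited by how few arrays there are.

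Of 52865 probe sets, 34140 were tested, those with signal over the array median on 2 arrays or more, after removal of 158 controls. The supplied annotation gave 24956 probe sets 1 symbol, 361 several and 27390 none. In all, 101 probe sets named a member alone, 23 members had 2 or more, and 2 probe sets naming KLK4 and KLK15 together were not used. RefSeq for T2T-MFA8v1.1 held 57 of the 58 symbols, all but S100A12, and 22 further genes of these families with no probe set named here. No sequences are printed.

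Log2 signal of all 10 arrays was fitted with limma 3.58.1 in R 4.3.3, with a mean per group, a random block for the line in the title (correlation 0.286), an intensity trend and two-sided tests, on 7 residual and 5.37 prior degrees of freedom. Benjamini-Hochberg adjustment covered all tested probe sets, and calls are adjusted p under 0.05. A fold is a lower bound where no array of the dimmer group exceeded its own median, and it was then computed with those signals raised to that median. Plots used Python 3.11.15 with matplotlib 3.10.9.

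The members, marker lists and related gene lists were chosen with earlier results of these data known. Members named with values were KLK7, those called or of smallest p between the stem cell groups up to 6, the 12 lower and 8 higher called members of largest change in each comparison with the MF arrays, up to 3 of smallest p in each family and comparison, and SERPINH1, SERPINE2, S100A8, S100A9, S100A10, S100A11, KLK5, KLK8 and SPINK5. One item of the rule is not reported here. S100A4, S100A6 and S100A14 were added after their values were seen, and of each related list up to 4 genes of smallest p were eligible. The 22 alternatives were independent arrays, the description code as block, averaging the arrays of a line, an offset of 32, quantile normalization, median centring, no filter, a filter at the 75th percentile, no trend, the mean of all probe sets, only the groups compared, each array left out, and, added after the data were seen, signals under the array median set to it.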

Additional observations from a re-analysis of the deposited data

How the results depend on the processing

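The count of members called between PG-haESCs and ICSI ESCs was 1. It became 2 with arrays as independent samples, and 0 with arrays centred on their medians, with arrays of a line averaged, without the intensity trend and with only the groups compared. Leaving out 1 array gave 0 to 2. Against the MF arrays, the 27 members called in PG-haESCs became 17 with arrays of a line averaged, which leaves 6 values, and 18 to 30 with 1 array left out, lowest without either MF array. The 26 called in ICSI ESCs ranged from 18 to 27 with 1 array left out. Of those called, 17 of 27 and 15 of 26 kept their call under all 22 alternatives (a few have no value under the stricter filter), and no called value changed sign. Centring arrays on their medians moved the median log2 change of all genes against the MF arrays from 0.06 to 0.39 in PG-haESCs and from 0.08 to 0.36 in ICSI ESCs, and quantile normalization to 0.24 in both. With only the groups compared, the ICSI ESC fit had no line block, since its correlation could not be estimated.

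Changes of sign were found among changes that were not called. With the mean of all probe sets, S100A14 became -3.02 in PG-haESCs and -2.39 in ICSI ESCs against the MF arrays, SERPINA3 -1.18 and -1.63, and SPRR1B between the stem cell groups -0.76. With 1 array left out, S100A14 in PG-haESCs ran from -0.069 (without PG-haESC array 5) to 0.38. Between the stem cell groups, S100A8 was -0.056 with signals under the array median set to it, and SPINK5 was 0.16 with lines averaged. With 1 array left out, SPINK1 ran from -0.87 to 0.23 (without ICSI ESC array 1), SPRR1B from -0.15 (PG-haESC array 2 left out) to 0.23, with -0.14 when ICSI ESC array 2 was left out, and SPINK5 from -0.66 to 0.54 (without ICSI ESC array 3, and 0.014 without PG-haESC array 4). Apart from the mean over probe sets, which adds other probe sets by construction, the cause was not tested. No paired analysis was possible because the groups share no cell line or code. Signals under the array median are imprecise, and their fitted changes are no measure of size.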
